A study of Mus musculus with 31 samples.

Results

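The 38 aminoacyl-tRNA synthetase genes of the mouse were followed through 31 RNA-seq libraries of Panc02, a mouse pancreatic adenocarcinoma cell line. The cell line labels of the rescue samples read Panc03 to Panc12 and were taken as Panc02. They were taken by gene symbol from the 3 deposited count tables, 1 symbol that had been renamed in the rescue table (Wars, there Wars1) being matched by its Ensembl identifier, and the rule used no measured value. The 38 genes, on 15 chromosomes, were members of tables of 55487, 56980 and 56941 genes, and all 38 passed the filter on low counts in each table. The names ending in 2 gave 17 mitochondrial enzymes, and the other 21 were counted as cytosolic. Tarsl2 (now Tars3), a homologue of the cytosolic threonyl enzyme, was counted as cytosolic despite its name. Gars and Kars encode both the cytosolic and the mitochondrial enzyme and were also kept with the cytosolic class.

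The first table held WT Panc02 spheroids embedded in Matrigel and given control medium (Ctrl), conditioned medium of untreated macrophages (M0-CM) or conditioned medium of macrophages treated with IFNγ and lipopolysaccharide (M1-CM), with n = 3 each. Per the study's methods, macrophages were washed before conditioning, and the medium they conditioned held supernatant of another cell line. The control medium is not said to hold that supernatant, so both conditioned media may differ from Ctrl in it too. The second held WT and Cxcl5-/- cells grown in 2D or as 3D spheroids in plain culture medium, with n = 3 each. The third, the rescue set, held 3D spheroids in plain medium of WT cells (n = 2), Cxcl5-/- cells (n = 2), Cxcl5-/- cells overexpressing a stabilized mutant Hif1a (n = 3, Hif1a OE) and Cxcl5-/- cells overexpressing Myc (n = 3, Myc OE). Both overexpression lines therefore carry the Cxcl5 knockout and are compared with the Cxcl5-/- group. The knockout was made with a lentiviral Cas9 and guide vector, the overexpression with retroviral vectors, and both under puromycin selection, and the sources used here do not say whether the lines were clones or pools. The study's methods speak of biological replicates for its experiments in general, but no label ties these libraries to separate cultures, so p-values measure the spread between these libraries, which may be technical.

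Aminoacyl-tRNA synthetases join each amino acid to its tRNA, and the charged tRNA is handed to elongation factors that carry it to the ribosome. Cytosolic enzymes serve the translation of nuclear-encoded messages, and a separate set, also nuclear-encoded, serves the few proteins made inside mitochondria. Part of the cytosolic enzymes sit in a multisynthetase complex held together by the scaffold proteins encoded by Aimp1, Aimp2 and Eef1e1. Many cytosolic synthetase genes are known targets of ATF4, the transcription factor of the amino acid stress response, and Myc is known to drive genes of the translation machinery.

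Short stretches of the start regions are shown because the data compare cells with altered Hif1a and Myc and because ATF4 regulates many of these genes. RefSeq promoter windows on GRCm38, from 250 bases before to 50 bases after the annotated start, were at hand for 28 of the 38 genes and were searched on both strands. The C/EBP-ATF composite element TGATGNAA occurred in 5 of the 14 cytosolic genes with a window (35.7%; Aars, Gars, Iars, Tars and Yars), in 0 of the 14 mitochondrial genes and in 4.13% of 17492 protein-coding genes. The E-box CACGTG occurred in 4 of the 14 cytosolic genes (28.6%; Aars, Farsb, Iars and Tars), in 1 of the 14 mitochondrial genes (7.14%; Ears2) and in 8.91% of protein-coding genes. The core of the hypoxia response element, ACGTG, which lies within CACGTG, occurred in 42.9% of the cytosolic, 28.6% of the mitochondrial and 23.2% of all protein-coding genes. In the stretches below, written 5′ to 3′ on the strand of the gene, capitals mark the composite element read on the opposite strand in the first 2 and the E-box in the last 2.
Gars, chr6:55037961-55037988 (+), motif 30 bases before the start: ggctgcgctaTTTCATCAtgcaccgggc
Tars, chr15:11399659-11399683 (-), motif 15 bases before the start: aggagtcccgTTGCATCAgctggtt
Farsb, chr1:78488921-78488946 (-), motif 39 bases before the start: agacaggcatCACGTGagacagccca
Iars, chr13:49682051-49682076 (+), motif 69 bases before the start: ccaatcgccaCACGTGttgtttgtag
A match in these windows is a description of the sequence and not evidence of binding.

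Library totals ranged from 43875429 to 78498230 counts in the media set, from 46973008 to 72361685 in the 2D and 3D set and from 41542533 to 64872036 in the rescue set. The lowest count of any synthetase gene in any library was 161. Levels are given as CPM, the reads of a gene relative to the TMM-scaled library size. Fold changes are log2 values from edgeR's quasi-likelihood test, a value in parentheses gives this change with its standard error, and a gene was called at an adjusted p under 0.05 over all genes tested. The Cxcl5 transcript did not pass the test in 2D, at 47.3 ± 1.78 CPM for WT (SD, n = 3) against 34.3 ± 2.70 for the knockout (log2 change -0.47, SE 0.14, adjusted p = 0.0704). Spheroids labelled as knockout held more of it, 50.6 ± 13.1 CPM, and WT spheroids 27.0 ± 2.17 (log2 change 0.91, SE 0.14, adjusted p = 0.000173). The transcript was thus not lower where the label says knockout, and since an indel made by a guide need not lower a transcript, its level alone does not check that label. These libraries are called by their label throughout. In the rescue set it was lower in Cxcl5-/- (38.4 ± 2.51, n = 2) than in WT (65.97 ± 2.47, n = 2). Hif1a fell in both 3D knockout groups (-1.21 and -1.18), as did Myc (-1.75 and -1.17). Hif1a OE raised Hif1a by 0.94 and Myc OE raised Myc by 4.54, while Hif1a was also higher in Myc OE (0.90). Krt8, Krt18 and the pancreatic factor Pdx1 were present in all 3 sets, but the epithelial markers Epcam and Cdh1 were at most 0.552 and 0.609 CPM in any library.

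Per kilobase of transcript, the cytosolic median stood well above the mitochondrial one in every group, though the ranges overlapped. The highest mitochondrial gene, Lars2, exceeded the highest cytosolic one in 2D Cxcl5-/- (180.6 against 140.7 CPM per kb) and in 3D WT (128.4 against 106.6). Its libraries spread widely, from 326 to 905 CPM in 2D Cxcl5-/- and from 55.05 to 995 in 3D WT. Lars2 also set the upper end of the mitochondrial range in 2D WT. In 2D WT cells the cytosolic median was 62.1 CPM per kb (7.37 to 136) and the mitochondrial median 8.91 (2.30 to 50.3). The medians in 3D WT were 40.2 and 7.24, and in the libraries labelled 3D Cxcl5-/- 24.7 and 5.14. In the rescue set the cytosolic medians were 36.3 in WT, 21.0 in Cxcl5-/-, 30.8 in Hif1a OE and 35.7 in Myc OE, and the mitochondrial medians 5.19, 3.66, 5.82 and 6.82. Gars, the glycyl enzyme, had the highest level of all members per kilobase in each rescue group, at 104.5 CPM per kb in WT and 42.7 in Cxcl5-/-. Mars2, Pars2 and Wars2, the mitochondrial methionyl, prolyl and tryptophanyl enzymes, were the lowest 3 in each of the 11 groups.

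**Figure D1:**
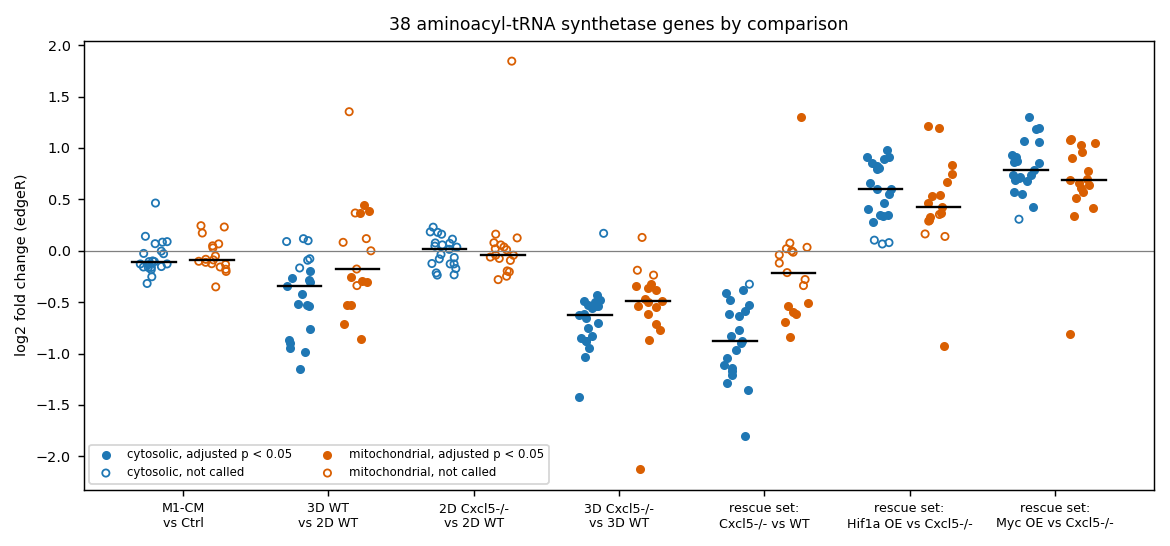
Each point is 1 of the 38 synthetase genes, with its log2 fold change on the vertical axis, in 7 comparisons along the horizontal axis; filled points passed an adjusted p under 0.05 and black lines mark the median of each class. Nearly all points lie below 0 for the knockout in 3D, around 0 for the knockout in 2D, and above 0 for Hif1a OE and Myc OE.

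The comparison of 3D with 2D WT cells sets spheroids embedded in Matrigel beside cells grown in 2D. Spheroid form, matrix and handling cannot be told apart in it. Of the 21 cytosolic genes 15 fell and 0 rose in 3D (median -0.34), and of the 17 mitochondrial genes 7 fell and 3 rose (median -0.18), against 22.0% of 21367 genes called lower and 22.2% called higher. Among bulk samples, fewer cells of a type and less RNA per cell cannot be told apart. Hars, the histidyl enzyme, fell most among cytosolic members. It measured 155, 145 and 155 CPM in 2D WT and 73.2, 73.1 and 59.3 in 3D WT, groups that did not overlap (log2 change -1.15, SE 0.10, adjusted p = 4.22e-07). Nars (asparaginyl) went from 371, 356 and 396 to 183, 229 and 154 CPM (log2 change -0.99, SE 0.12, adjusted p = 1.98e-05). Tars (threonyl) went from 241, 235 and 269.6 to 126, 146 and 116 CPM (log2 change -0.95, SE 0.11, adjusted p = 6.59e-06). These 2 genes, like Rars and Lars, kept every 3D library below every 2D library, as did 27.5% of all genes tested. Rars (arginyl) went from 158, 165 and 184 to 80.8, 111 and 80 CPM (log2 change -0.90, SE 0.13, adjusted p = 6.32e-05). Lars (leucyl) went from 279, 278 and 286 to 151, 182 and 128 CPM (log2 change -0.87, SE 0.11, adjusted p = 2.21e-05). Both belong to the multisynthetase complex, of whose 8 enzymes 5 fell. Gars (-0.29), Kars (-0.53) and Tarsl2 (-0.34) fell less far. Gars lost its call without 2D WT replicate 3 (-0.23), and Tarsl2 without 2D WT replicate 3 (-0.30), 3D WT replicate 2 (-0.25) or 3D WT replicate 3 (-0.29). The 6 cytosolic genes not called had values from -0.17 (Iars) to 0.12 (Dars), Qars at -0.09 among them.

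The mitochondrial members split by gene. Mars2 (methionyl) measured 39.4, 42.1 and 38.4 CPM in 2D and 23.4, 21.00 and 21.9 in 3D WT (log2 change -0.85, SE 0.08, adjusted p = 1.85e-06). Yars2 (tyrosyl) measured 29.5, 34.9 and 33.5 against 20.8, 17.2 and 21.9 CPM (log2 change -0.71, SE 0.12, adjusted p = 0.000236). Cars2 (cysteinyl) measured 24.3, 23.1 and 23.9 against 18.3, 15.6 and 15.5 CPM (log2 change -0.53, SE 0.09, adjusted p = 0.000390). In the opposite direction, Fars2, Tars2 and Wars2, the phenylalanyl, threonyl and tryptophanyl enzymes, rose. Fars2 measured 20.96, 19.9 and 18.9 CPM in 2D and 29.9, 25.97 and 25.5 in 3D (log2 change 0.45, SE 0.09, adjusted p = 0.00141). Tars2 measured 35.3, 32.7 and 34.8 against 51.7, 40.01 and 42.3 CPM (log2 change 0.38, SE 0.10, adjusted p = 0.00570). Wars2 measured 12.2, 11.8 and 11.3 against 16.6, 14.3 and 14.8 CPM (log2 change 0.37, SE 0.11, adjusted p = 0.0112). For each of these 6 genes the 2D and 3D libraries did not overlap. Every 3D library lay above every 2D library for 26.8% of all genes tested, and below for 27.5%. The split depends on scaling: by library totals 27 members fell and 0 rose, with the median of all genes at -0.21 in place of 0.002, and by DESeq2 size factors 11 cytosolic and 4 mitochondrial genes fell and 4 mitochondrial genes rose, with all genes at 0.07. Summed macrophage markers were 1.90 to 2.66 CPM in 2D WT and 7.46 to 8.90 in 3D WT, with 3 of 5 tested markers higher and 0 lower. Summed epithelial markers were 566 to 616 and 867 to 1116 CPM (4 of 6 higher, 2 lower), and fibroblast markers 171 to 185 and 156 to 169 CPM (3 of 6 higher, 1 lower). Their part in the result was not tested.

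In 3D, the synthetase genes were lower in the libraries labelled Cxcl5-/- than in WT. Of the 21 cytosolic genes 20 fell (median -0.62, range -1.42 to 0.17), and of the 17 mitochondrial genes 14 fell (median -0.48), with 0 higher in either class, against 25.3% of all genes called lower and 19.7% called higher and a median of -0.04 over all genes. For 35 of the 38 genes all 3 libraries labelled Cxcl5-/- lay below all 3 WT libraries, as they did for 28.8% of all genes tested. Cars, the cysteinyl enzyme, measured 148, 141 and 131 CPM in 3D WT and 51.5, 49.9 and 55.4 in the libraries labelled 3D Cxcl5-/-. The groups were far apart (log2 change -1.42, SE 0.09, adjusted p = 3.65e-08). Sars, the seryl enzyme, measured 260.3, 243 and 216 against 129, 101 and 121 CPM (log2 change -1.03, SE 0.11, adjusted p = 3.79e-06). Farsb, the beta subunit of the phenylalanyl enzyme, measured 93.9, 85.95 and 96.6 against 54.4, 41.7 and 47.4 CPM (log2 change -0.95, SE 0.10, adjusted p = 4.07e-06). All 8 enzymes of the multisynthetase complex fell (median -0.70), Kars, Mars1 and Qars most. Kars, the lysyl enzyme, measured 168, 166 and 153 against 91.5, 74.3 and 99.1 CPM (log2 change -0.88, SE 0.10, adjusted p = 1.16e-05). Mars1, the methionyl enzyme, measured 113, 108 and 106 against 59.5, 55.98 and 62.3 CPM (log2 change -0.88, SE 0.07, adjusted p = 6.16e-07). Qars, the glutaminyl enzyme, measured 122, 108 and 108 against 62.99, 59.4 and 65.4 CPM (log2 change -0.85, SE 0.08, adjusted p = 3.05e-06). Gars, outside the complex, measured 259.8, 257 and 244 against 143, 138 and 146 CPM (log2 change -0.83, SE 0.08, adjusted p = 1.33e-06). Tarsl2 was low throughout, at 20.99, 16.8 and 17.99 against 11.7, 12.4 and 13.7 CPM, and fell by 0.56 (adjusted p = 0.000450).

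Vars, the valyl enzyme, was the 1 cytosolic gene that did not fall. It measured 122, 99.9 and 116 CPM in 3D WT and 129.7, 133 and 118 in the libraries labelled 3D Cxcl5-/-, and the groups overlapped (log2 change 0.17, SE 0.13, adjusted p = 0.309). Among mitochondrial genes Tars2 measured 51.7, 40.01 and 42.3 against 25.5, 24.1 and 24.1 CPM (log2 change -0.86, SE 0.10, adjusted p = 1.05e-05). Tars2 thus rose from 2D to 3D in WT cells and was below its 2D level in the spheroids labelled Cxcl5-/-. The 3 mitochondrial genes not called were Ears2 (-0.24, adjusted p = 0.0714), Mars2 (-0.19, 0.0786) and Rars2 (0.13, 0.264). The 13 cytosolic genes listed as known ATF4 targets and the 8 others had 12 and 8 called lower and medians of -0.62 and -0.64.

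The size of this drop depends on how libraries are scaled. The predicted gene Gm10800 alone took 6.33 to 14.5% of the counts of 3D WT and 0.334 to 0.429% of those labelled 3D Cxcl5-/-, and TMM factors were 0.820 to 0.912 and 1.01 to 1.22. Scaled by library totals, 13 synthetase genes were called lower and 2 higher, the cytosolic median was -0.25, the mitochondrial median -0.10, and the median of all genes moved to 0.35. Scaled by totals over genes under 1% of counts, 21 were lower and 2 higher with medians of -0.37 and -0.23 and all genes at 0.22. Relative to the median gene the cytosolic median was -0.58, -0.60 and -0.59 with TMM, library totals and the under-1% totals, and the mitochondrial median -0.45 with each. The 2 genes called higher with both other scalings were Vars and Rars2. Summed epithelial markers were 257 to 278 CPM in the libraries labelled 3D Cxcl5-/- and 867 to 1116 in 3D WT, with 2 of 6 tested markers higher and 3 lower, and summed macrophage markers 15.6 to 25.7 and 7.46 to 8.90 CPM with Adgre1 at 0 in both, 2 of 5 tested being higher and 0 lower. Fibroblast markers summed to 396 to 453 and 156 to 169 CPM although 3 of 6 tested markers were lower and 2 higher (median -0.83), and endothelial and acinar markers stayed under 0.563 CPM. The part of these markers and of Gm10800 in the result was not tested.

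In 2D no synthetase gene was called between the genotypes. Of the 38 genes 0 passed the test in edgeR, against 3.86% of all genes called higher and 3.17% called lower, and 2 were higher and 6 lower at an unadjusted p under 0.05, against 2012 and 1892 of all 21367 genes. DESeq2 called 1 lower, Mars2, and 0 higher, against 849 lower and 1163 higher of all genes. The class medians were 0.01 and -0.04. Cars measured 128, 124 and 142 CPM in 2D WT and 145, 133 and 127 in 2D Cxcl5-/- (log2 change 0.04, SE 0.09, adjusted p = 0.915), and Sars 230.2, 207 and 235 against 250.6, 237 and 221 (log2 change 0.08, SE 0.10, adjusted p = 0.807). Gars measured 320.1, 286 and 324 against 344, 327 and 333 CPM (log2 change 0.11, SE 0.08, adjusted p = 0.498). The libraries overlapped for Cars and Sars, while all 3 knockout libraries were above WT for Gars. All knockout libraries lay above WT for 4 of the 38 members and below WT for 9. Over all genes tested the shares were 12.9% and 13.1%.

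Whether the genotype effect differed between 2D and 3D was tested with an interaction term. It was negative and called for 15 cytosolic (median -0.61) and 7 mitochondrial genes (median -0.46), positive and called for 0, against 16.1% and 11.1% of all genes and a median of -0.05 over all genes. The largest cytosolic terms were those of Cars (log2 change -1.46, SE 0.12, adjusted p = 2.98e-06), Sars (log2 change -1.11, SE 0.15, adjusted p = 0.000128) and Gars (log2 change -0.94, SE 0.11, adjusted p = 3.56e-05). Yars, the tyrosyl enzyme, measured 137, 131 and 142 CPM in 2D WT, 173, 159 and 149 in 2D Cxcl5-/-, 121, 112 and 98.5 in 3D WT and 65.8, 64.8 and 73.5 in the libraries labelled 3D Cxcl5-/-, an interaction of -0.93 ± 0.13 (SE, adjusted p = 0.000209). It was higher than WT in all knockout libraries in 2D and lower in all in 3D. Over all genes tested 12.9% were higher in this way in 2D and 28.8% lower in 3D. Mars1 measured 158, 153 and 163 CPM in 2D WT and 169, 163 and 157 in 2D Cxcl5-/-, and its interaction was -0.92 ± 0.10 (SE, adjusted p = 3.42e-05). Kars (-0.75), Qars (-0.77) and Tarsl2 (-0.75) were also called. Of the mitochondrial genes, Tars2 had an interaction of -0.82 ± 0.14 (SE, adjusted p = 0.000782). Aars2, the alanyl enzyme, measured 30.5, 25.7 and 32.6 CPM in 2D WT, 30.7, 28.8 and 30.1 in 2D Cxcl5-/-, 30.3, 22.3 and 25.9 in 3D WT and 17.3, 14.2 and 16.6 in the libraries labelled 3D Cxcl5-/- (log2 change -0.72, SE 0.17, adjusted p = 0.00800). The other 6 cytosolic terms were not called, with values from -0.51 (Farsa) to -0.01 (Vars). By library totals 9 interaction terms were negative and 1 positive with all genes at 0.32, and by totals over genes under 1% 18 and 1 with all genes at 0.20. The positive term was that of Mars2 in both.

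Between 2D Cxcl5-/- cells and the libraries labelled 3D Cxcl5-/- all 21 cytosolic genes fell (median -1.13) and 15 mitochondrial genes fell (median -0.51), against 28.2% of all genes called lower, 28.7% called higher and a median of 0.11 over all genes. Tars fell most of the cytosolic members, from 293, 281 and 260.0 CPM in 2D to 98.1, 81.2 and 95.6 in 3D (log2 change -1.60, SE 0.11, adjusted p = 3.54e-08). Nars went from 390.0, 357 and 349 to 125, 112 and 130.4 CPM (log2 change -1.58, SE 0.13, adjusted p = 1.92e-07) and Mars1 changed by -1.46 ± 0.07 (SE, adjusted p = 3.33e-09). Hars went from 134, 132 and 126 to 52.1, 44.5 and 50.7 CPM (log2 change -1.41, SE 0.10, adjusted p = 4.05e-08). Rars went from 171, 148 and 145 to 64.2, 53.6 and 59.6 CPM (log2 change -1.39, SE 0.13, adjusted p = 8.59e-07). Each of these genes had all 3D libraries below all 2D libraries, as did 31.2% of all genes tested. Yars2 went from 31.6, 28.5 and 31.6 to 16.7, 13.2 and 13.4 CPM (log2 change -1.08, SE 0.12, adjusted p = 3.86e-06). Sars2, the mitochondrial seryl enzyme, went from 10.1, 11.6 and 10.01 to 6.37, 4.18 and 6.35 CPM (log2 change -0.91, SE 0.19, adjusted p = 0.000996). Gars (-1.23), Kars (-1.28), Qars (-0.86) and Tarsl2 (-1.08) fell as well, and Fars2 (-0.22, adjusted p = 0.0550) and Vars2 (-0.11, 0.548) were not called. By library totals 20 cytosolic and 11 mitochondrial genes fell (medians -0.97 and -0.36, all genes at 0.26), and by totals over genes under 1% of counts 19 and 9 (medians -0.85 and -0.23, all genes at 0.38). Summed fibroblast markers were 172 to 185 CPM in 2D and 396 to 453 in 3D (5 of 6 tested higher, 0 lower), macrophage markers 6.21 to 7.87 and 15.6 to 25.7 CPM (4 of 5 higher, 0 lower) and epithelial markers 484 to 519 and 257 to 278 CPM (2 of 6 higher, 3 lower). Their part in the result was not tested. This comparison shares its libraries with the preceding ones.

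**Figure D2:**
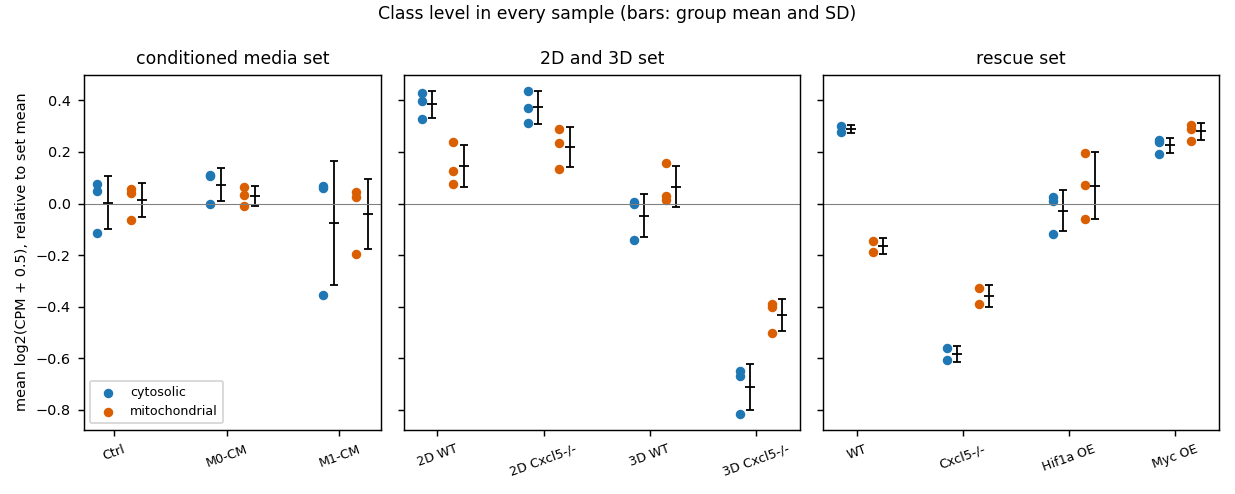
Mean log2(CPM + 0.5) over the 21 cytosolic (blue) and the 17 mitochondrial (orange) synthetase genes in every library, relative to the mean of its set, with bars for the group mean and SD. The cytosolic level is 0.31 to 0.44 in all 2D libraries, -0.14 to 0.01 in 3D WT and -0.82 to -0.65 in the libraries labelled 3D Cxcl5-/-; in the rescue set it is -0.61 and -0.56 in Cxcl5-/-, and the other groups lie above it.

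The rescue set measured the knockout in 3D again, in separate libraries. Of the 21 cytosolic genes 20 fell (median -0.88, range -1.81 to -0.33) and for all 21 both Cxcl5-/- libraries lay below both WT libraries, as they did for 49.1% of all genes tested. Of the 17 mitochondrial genes 6 fell and 1, Lars2, rose (median -0.21). Over all 28730 genes 24.3% were called lower and 17.6% higher, with a median of -0.30, so the mitochondrial class lay close to the median gene. Cars again fell most, from 134 and 124 CPM in WT to 38.1 and 35.7 in Cxcl5-/- (log2 change -1.81, SE 0.08, adjusted p = 9.22e-08). Sars went from 193 and 197 to 73.5 and 79.1 CPM (log2 change -1.35, SE 0.09, adjusted p = 8.41e-07), and Gars from 242 and 255 to 106 and 97.2 (log2 change -1.29, SE 0.09, adjusted p = 1.57e-06). The WT libraries of these 3 genes were more than 2 times the Cxcl5-/- libraries. Farsb went from 72.1 and 75.5 to 33.6 and 30.1 CPM (log2 change -1.21, SE 0.12, adjusted p = 1.80e-05). Rars, in the complex, went from 137 and 128 to 59.6 and 57.99 CPM (log2 change -1.17, SE 0.10, adjusted p = 6.02e-06), and all 8 complex enzymes fell (median -0.89). Kars (from 92.6 and 91.4 to 62.7 and 64.6 CPM, log2 change -0.53, SE 0.09, adjusted p = 0.000649) and Qars (from 85.2 and 79.02 to 57.5 and 60.1 CPM, log2 change -0.48, SE 0.12, adjusted p = 0.00877) fell least among the 8, and Qars lost its call without WT replicate 1 or Cxcl5-/- replicate 1. Vars, not lower in the other set, fell here from 104 and 102 to 80.1 and 78.2 CPM (log2 change -0.38, SE 0.08, adjusted p = 0.00359). Tarsl2 measured 18.02 and 15.2 CPM in WT and 13.3 and 13.2 in Cxcl5-/- and was the 1 cytosolic gene not called (log2 change -0.33, SE 0.18, adjusted p = 0.161).

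Of the mitochondrial genes Aars2 went from 22.6 and 20.2 to 11.6 and 12.3 CPM (log2 change -0.84, SE 0.18, adjusted p = 0.00365). Nars2, the asparaginyl enzyme, went from 18.9 and 19.2 to 11.4 and 12.1 CPM (log2 change -0.70, SE 0.12, adjusted p = 0.000744). Yars2 went from 16.9 and 16.9 to 11.7 and 10.4 CPM (log2 change -0.61, SE 0.12, adjusted p = 0.00206). In all 3 genes both Cxcl5-/- libraries lay below both WT libraries, as for 49.1% of all genes tested. Sars2 and Tars2 fell as well (-0.54 and -0.51). Sars2 lost its call when any single one of the 4 libraries was left out. Set beside the 2D and 3D set, 20 cytosolic genes were lower in each, 19 in both, which is 95% of either list. For mitochondrial genes 14 and 6 were lower and 6 in both, or 42.9% of the first list and 100% of the second. The sign was the same in 20 of 21 cytosolic and 12 of 17 mitochondrial genes. Of all 21058 genes tested in both sets, 5361 and 4581 were lower and 3212 in both, or 59.9% of the first list and 70.1% of the second, and 76.5% had the same sign. Among cytosolic genes known as ATF4 targets 13 of 13 fell (median -0.90) and among the others 7 of 8 (median -0.56). Scaling by library totals left 26 lower and 1 higher, against 6524 lower and 5017 higher of all genes tested. DESeq2 size factors gave 28 and 1, against 7841 and 4375 of all genes. In the rescue set epithelial markers summed to 327 to 342 CPM in Cxcl5-/- and 873 to 918 in WT, with 1 of 7 tested markers higher and 3 lower. Fibroblast markers summed to 458 to 466 and 77.02 to 81.4 CPM with 5 of 6 higher, macrophage markers to 15.5 to 17.2 and 14.3 to 14.5 CPM, and endothelial markers to at most 0.0406 and 3.17 CPM. Their part in the result was not tested.

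**Figure D3:**
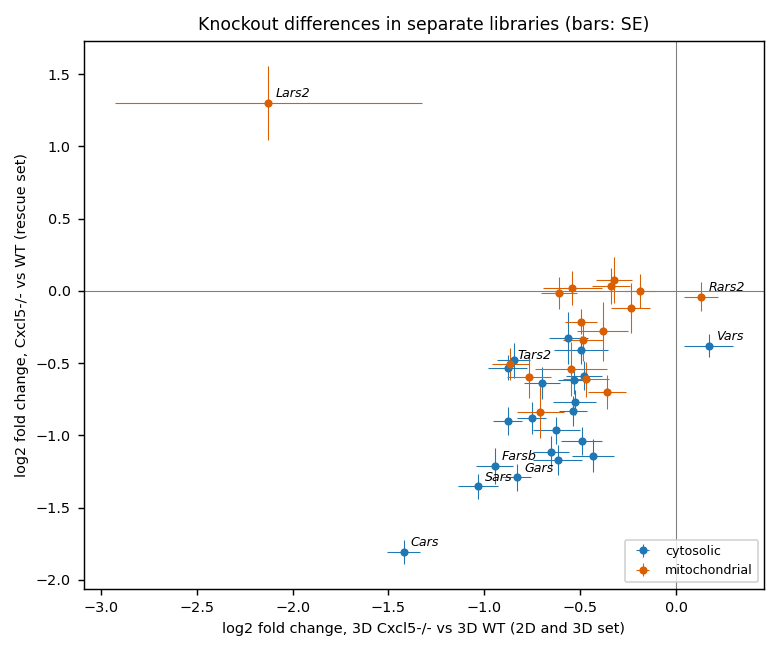
Log2 fold change of each synthetase gene, Cxcl5-/- against WT in 3D, in the 2D and 3D set (horizontal) and in the rescue set (vertical), with bars for the standard error. Cars, Sars, Gars and Farsb lie at the lower left, Vars to the right of 0, and Lars2 at the upper left, apart from all other genes.

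Most synthetase genes were higher in Hif1a OE than in Cxcl5-/- spheroids. Of the 21 cytosolic genes 18 rose and 0 fell (median 0.60), and of the 17 mitochondrial genes 12 rose and 1, Lars2, fell (median 0.42), against 20.5% of all genes called higher, 15% called lower and a median of 0.16. This comparison and the next share the Cxcl5-/- libraries with the preceding one. Sample titles of WT and Cxcl5-/- carry a prefix that those of the overexpression groups lack. Library totals were 42281281 and 43890492 in Cxcl5-/-, 51419869 to 64872036 in Hif1a OE and 51639654 to 60438310 in Myc OE. TMM factors were 1.12 to 1.14, 0.882 to 1.03 and 0.857 to 0.939. Whether these libraries were prepared together is not stated, and its part in the result was not tested. Sars went from 73.5 and 79.1 CPM in Cxcl5-/- to 158, 149 and 144 in Hif1a OE (log2 change 0.98, SE 0.08, adjusted p = 4.93e-06). Farsa, the alpha subunit of the phenylalanyl enzyme, went from 29.9 and 32.5 to 59.4, 61.9 and 55.4 CPM (log2 change 0.92, SE 0.09, adjusted p = 1.70e-05). Vars went from 80.1 and 78.2 to 153, 142 and 152 CPM (log2 change 0.91, SE 0.08, adjusted p = 5.10e-06), and its Hif1a OE libraries also lay above the WT values of 104 and 102. Cars went from 38.1 and 35.7 to 69.5, 66.9 and 69.2 CPM (log2 change 0.89, SE 0.08, adjusted p = 5.37e-06), below its WT values of 134 and 124. Kars went from 62.7 and 64.6 to 122, 119 and 106 CPM (log2 change 0.86, SE 0.08, adjusted p = 1.29e-05), and Gars from 106 and 97.2 to 190.4, 178 and 172 (log2 change 0.83, SE 0.09, adjusted p = 2.11e-05). Every Hif1a OE library of these 6 genes lay above both Cxcl5-/- libraries, as for 30.5% of all genes tested. The cytosolic genes not called numbered 3. Lars measured 85.7 and 81.7 CPM in Cxcl5-/- and 92.4, 88.2 and 82.3 in Hif1a OE (log2 change 0.07, SE 0.08, adjusted p = 0.557), Nars 108 and 98.2 against 109, 114 and 104 (log2 change 0.08, SE 0.09, adjusted p = 0.510), and Tarsl2 13.3 and 13.2 against 17.7, 12.9 and 12.1 (log2 change 0.10, SE 0.17, adjusted p = 0.670). Their groups overlapped, and by library totals the values turn to -0.16, -0.15 and -0.12.

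Of the mitochondrial genes, Yars2 measured 11.7 and 10.4 CPM in Cxcl5-/- and 27.7, 26.6 and 22.6 in Hif1a OE (log2 change 1.21, SE 0.11, adjusted p = 1.07e-05), and its Hif1a OE libraries were above the WT values of 16.9 and 16.9. Sars2 measured 3.82 and 4.34 against 8.37, 11.2 and 8.53 CPM (log2 change 1.20, SE 0.17, adjusted p = 0.000254). Pars2, the mitochondrial prolyl enzyme, measured 3.34 and 4.18 against 6.69, 7.92 and 5.55 CPM (log2 change 0.84, SE 0.19, adjusted p = 0.00483). All 3 had every Hif1a OE library above both Cxcl5-/- libraries, as had 30.5% of all genes tested. Pars2, like Qars, lost its call without Cxcl5-/- replicate 1. Ears2, Hars2, Nars2 and Vars2 were not called (0.14 to 0.35). Scaling by library totals reduced the calls to 17 higher and 1 lower, with the median of all genes at 0 in place of 0.16. Summed fibroblast markers were 458 to 466 CPM in Cxcl5-/- and 137 to 174 in Hif1a OE (0 of 6 tested higher, 5 lower), epithelial markers 327 to 342 and 734 to 861 CPM (4 of 7 higher, 2 lower) and macrophage markers 15.5 to 17.2 and 20.6 to 26.9 CPM (1 of 6 higher, 0 lower). Their part in the result was not tested.

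In Myc OE 20 of 21 cytosolic genes (median 0.79) and 16 of 17 mitochondrial genes (median 0.69) were higher than in Cxcl5-/-. Lower were 0 cytosolic genes and 1 mitochondrial gene, Lars2, against 21.6% of all genes called higher, 18% called lower and a median of 0.11. For all 21 cytosolic genes every Myc OE library was above both Cxcl5-/- libraries, as for 29.7% of all genes tested. Sars reached 196, 189 and 179 CPM (log2 change 1.301, SE 0.08, adjusted p = 5.95e-07). Farsb reached 77.4, 69.96 and 70.7 CPM (log2 change 1.19, SE 0.11, adjusted p = 9.07e-06), and Kars 150.1, 141 and 142 (log2 change 1.18, SE 0.08, adjusted p = 1.16e-06). The Sars and Farsb libraries overlapped those of WT, and the Kars libraries lay above them. Farsa reached 70.6, 61.4 and 63.8 CPM (log2 change 1.06, SE 0.09, adjusted p = 4.23e-06) against 40.6 and 42.4 in WT. Gars reached 212, 202 and 222 CPM (log2 change 1.06, SE 0.09, adjusted p = 2.70e-06), below WT. Qars (90.7, 87.2 and 79.9 CPM, log2 change 0.55, SE 0.11, adjusted p = 0.00216) rose less, after 81.9, 91.4 and 69.6 CPM in Hif1a OE (log2 change 0.46, SE 0.11, adjusted p = 0.00696). Tarsl2, at 17.4, 14.7 and 17.1 CPM, was not called (log2 change 0.31, SE 0.17, adjusted p = 0.165). Of the mitochondrial genes, Yars2 reached 24.3, 23.1 and 23.3 CPM (log2 change 1.09, SE 0.11, adjusted p = 1.57e-05) and Sars2 9.22, 8.46 and 7.72 (log2 change 1.05, SE 0.17, adjusted p = 0.000519). The counts were 28 higher and 1 lower by library totals, where the median of all genes was -0.11. Summed fibroblast markers were 312 to 343 CPM in Myc OE (0 of 6 tested higher and 3 lower than in Cxcl5-/-), epithelial markers 297 to 346 (2 of 7 higher, 0 lower) and macrophage markers 16.4 to 23.9 CPM (1 of 6 higher, 2 lower), and their part in the result was not tested.

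**Figure D4:**
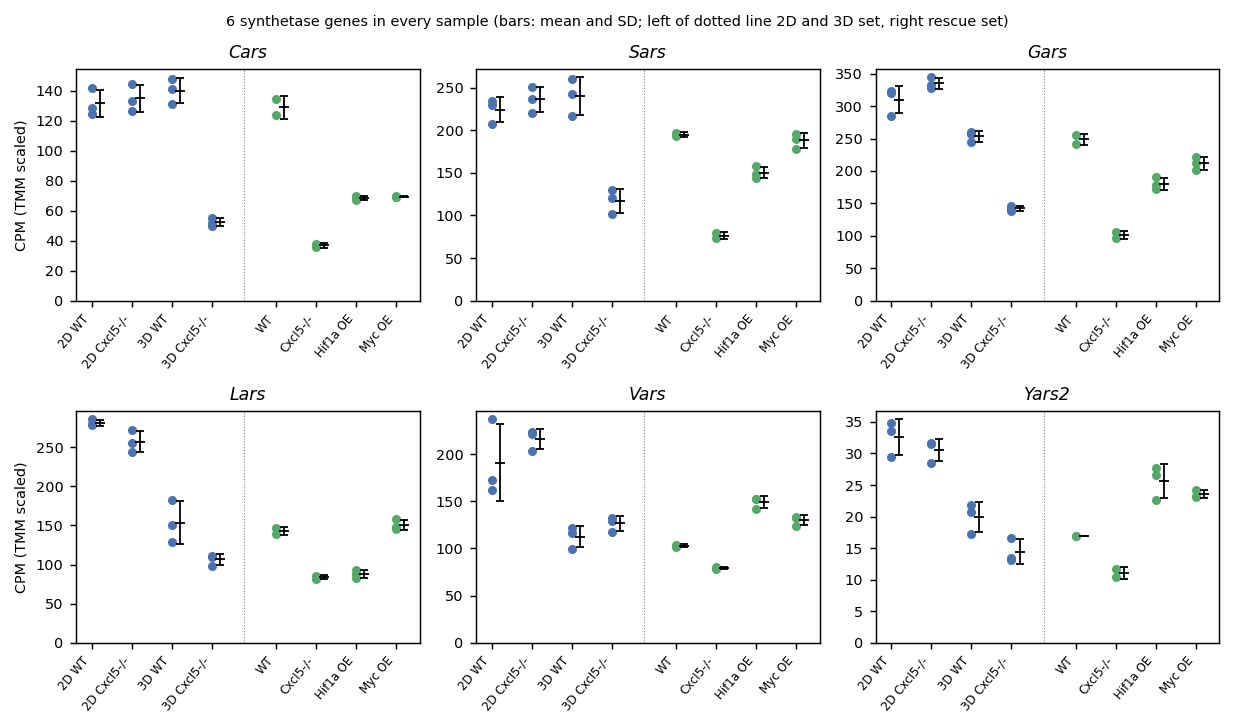
CPM of Cars, Sars, Gars, Lars, Vars and Yars2 in every library of the 2D and 3D set (blue) and the rescue set (green), with bars for mean and SD. Cars lies between 66.9 and 69.9 CPM in both overexpression groups, Lars rises in Myc OE and not in Hif1a OE, and Vars is not lower in the libraries labelled 3D Cxcl5-/-.

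Compared directly, Myc OE was above Hif1a OE for 10 cytosolic (median 0.24) and 6 mitochondrial genes (median 0.19) and below it for 0, against 9.54% of all genes called higher and 9.73% called lower. Lars differed most, at 148, 146 and 158 CPM in Myc OE against 92.4, 88.2 and 82.3 in Hif1a OE (log2 change 0.78, SE 0.07, adjusted p = 1.87e-05). Nars followed, at 168, 157 and 174 against 109, 114 and 104 CPM (log2 change 0.61, SE 0.08, adjusted p = 0.000229). In both genes the Hif1a OE libraries stayed near the Cxcl5-/- level. Wars, the tryptophanyl enzyme, measured 69.6, 65.6 and 61.7 in Myc OE against 38.9, 45.8 and 47.00 CPM (log2 change 0.58, SE 0.09, adjusted p = 0.000678). Hars measured 82.8, 87.7 and 78.9 against 60.6, 67.1 and 56.3 CPM (log2 change 0.44, SE 0.08, adjusted p = 0.00234), and Farsb differed by 0.38 ± 0.10 (SE, adjusted p = 0.0176), a call lost without Hif1a OE replicate 3 or Myc OE replicate 1. Gars (0.24) and Kars (0.32) were higher in Myc OE, Gars at the edge of the threshold (adjusted p = 0.0464) and lost as a call when any single library was left out, while Qars (0.09) and Tarsl2 (0.20) were not called. Cars did not separate the lines (log2 change 0.02, SE 0.07, adjusted p = 0.924), with all 6 libraries between 66.9 and 69.9 CPM. Vars leaned the other way (log2 change -0.20, SE 0.07, adjusted p = 0.0634), with its 3 Myc OE libraries below the 3 Hif1a OE libraries, as for 16.3% of all genes tested. DESeq2 called it lower (adjusted p = 0.0172). So did edgeR with at least 10 counts in every sample (adjusted p = 0.0444) or without Hif1a OE replicate 2 (adjusted p = 0.0293). Of the mitochondrial genes, Ears2 (glutamyl) measured 14.8, 13.6 and 13.7 CPM in Myc OE and 10.1, 10.03 and 7.52 in Hif1a OE (log2 change 0.61, SE 0.14, adjusted p = 0.00959). Vars2 (valyl) measured 27.4, 25.01 and 25.5 against 15.5, 18.8 and 18.8 CPM (log2 change 0.55, SE 0.10, adjusted p = 0.00188), and Mars2 25.7, 30.6 and 31.00 against 20.4, 21.1 and 18.7 (log2 change 0.54, SE 0.10, adjusted p = 0.00218). The libraries of these 3 genes did not overlap. Every Myc OE library lay above every Hif1a OE library for 15% of all genes tested. By library totals 8 genes were higher and 1, Vars, was lower, and by totals over genes under 1% of counts 12 and 1, again Vars, with all genes at -0.13 and -0.11. Summed epithelial markers were 297 to 346 CPM in Myc OE and 734 to 861 in Hif1a OE, with 1 of 7 tested markers higher and 3 lower. Fibroblast markers summed to 312 to 343 and 137 to 174 CPM, with 2 of 6 higher and 2 lower (median -0.83). Their part in the difference was not tested.

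The genes around the synthetases were read from lists set by known function. Over all genes, 25.3% were called lower and 19.7% higher in the libraries labelled 3D Cxcl5-/- against 3D WT, and 24.3% and 17.6% in the rescue knockout. In 2D these shares were 3.17% and 3.86%, and in 3D against 2D WT 22.0% and 22.2%. In Hif1a OE 15% were lower and 20.5% higher, and in Myc OE 18% and 21.6%. The complex scaffold genes Aimp1, Aimp2 and Eef1e1 fell by 0.65, 1.13 and 1.05 on the log2 scale in the libraries labelled 3D Cxcl5-/- and by 1.09, 1.71 and 1.72 in the rescue set. All 3 rose in Hif1a OE (1.00, 1.80 and 1.71) and in Myc OE (1.20, 1.63 and 1.61), and 0 of 3 was called in 2D. The 6 elongation factor genes listed (Eef1a1, Eef1b2, Eef1d, Eef1g and the mitochondrial Tufm and Tsfm) all fell in both 3D knockout comparisons (medians -0.67 and -0.91). They also all rose in Hif1a OE (median 1.02) and Myc OE (median 1.53), and all fell from 2D to 3D in WT (median -0.61). Atf4 itself fell by 1.37 and 1.86, and Asns, the asparagine synthetase and a classic ATF4 target, by 1.38 and 2.16 in the 2 knockout comparisons. Of 20 amino acid stress genes 15 fell and 0 rose in the libraries labelled 3D Cxcl5-/- (median -0.78), and 15 fell and 1, Vldlr, rose in the rescue set (median -1.33). In 2D 7 of the 20 rose and 0 fell (median 0.28), Asns among them (log2 change 0.55, SE 0.09, adjusted p = 0.00173), while 0 of the 38 synthetase genes were called. In Hif1a OE 13 were higher and 1, again Vldlr, lower (median 0.97), and in Myc OE 17 were higher and the same 1 lower (median 1.15). Of the 4 genes of mitochondrial tRNA-dependent conversion and formylation 1, Qrsl1, rose in the libraries labelled 3D Cxcl5-/- (0.30) and 0 were called in the rescue knockout. Of the 4 selenocysteine genes Eefsec, the selenocysteine elongation factor, was the 1 that fell (-0.54 and -0.65). Of the 7 genes of tRNA maturation, quality control and export 2 rose (Prorsd1 and Elac1) and 1 fell in the first. In the second 2 rose (Dtd1 and Elac1) and 3 fell (Trnt1, Aarsd1 and Xpot). The medians of -0.04 and -0.21 lay near the medians over all genes, -0.04 and -0.30. In Hif1a OE 4 of these 7 rose and 1 fell (median 0.46), and in Myc OE 6 rose and 1 fell (median 0.59). Xpot, the tRNA exportin, was the gene lower in both knockout comparisons (-0.59 and -0.74).

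Lars2, the mitochondrial leucyl enzyme, stood apart from the other 37 genes. It measured 67.3, 176 and 343 CPM in 2D WT, 905, 879 and 326 in 2D Cxcl5-/-, 55.05, 449.9 and 995 in 3D WT and 65.05, 189.8 and 88.98 in the libraries labelled 3D Cxcl5-/-. Within 1 group its highest library reached 18.1 times its lowest, while the next gene, Iars, reached 2.12 times. Its call in 3D (log2 change -2.13, SE 0.80, adjusted p = 0.0447) rests on overlapping groups and was lost when any single one of 7 libraries was left out, namely 2D WT replicate 2, 2D Cxcl5-/- replicates 1 and 2, 3D WT replicates 2 and 3 and replicates 1 and 3 of those labelled 3D Cxcl5-/-, with a log2 fold change of -1.16 without 3D WT replicate 3. Its interaction (log2 change -3.97, SE 1.13, adjusted p = 0.0191) was not called without 3D WT replicate 3. In the libraries labelled 3D Cxcl5-/- it was lower than in 2D Cxcl5-/- (log2 change -2.62, SE 0.82, adjusted p = 0.0143), a call lost without replicate 1 or 3 of the 3D libraries. In the rescue set it measured 11.6 and 11.7 CPM in WT, 38.4 and 19.04 in Cxcl5-/-, 14.7, 17.6 and 13.1 in Hif1a OE and 16.7, 16.3 and 16.2 in Myc OE. There it was the 1 member higher in Cxcl5-/- (log2 change 1.302, SE 0.26, adjusted p = 0.00211) and the 1 lower in Hif1a OE (log2 change -0.92, SE 0.23, adjusted p = 0.00772) and Myc OE (log2 change -0.81, SE 0.23, adjusted p = 0.0146), and both of the last calls were lost without Cxcl5-/- replicate 1. The change in the rescue knockout was 0.71 without Cxcl5-/- replicate 1 and 1.72 without replicate 2. The ribosomal RNA gene Rn18s-rs5, whose RNA the library kit is meant to remove, varied alongside. Its level was 418, 1037 and 755 CPM in 2D WT, 1846, 3409 and 622 in 2D Cxcl5-/-, 567, 1102 and 1992 in 3D WT and 444, 536 and 420 in the libraries labelled 3D Cxcl5-/-. In the rescue set it was 276 and 122 CPM in WT and 348 and 258 in Cxcl5-/-. Spearman's rho between both genes was 0.839 over the 12 libraries of the 2D and 3D set and 0.539 over the 10 of the rescue set, as a description of libraries that share preparation and groups. The part of ribosomal RNA reads in the Lars2 values was not tested.

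**Figure D5:**
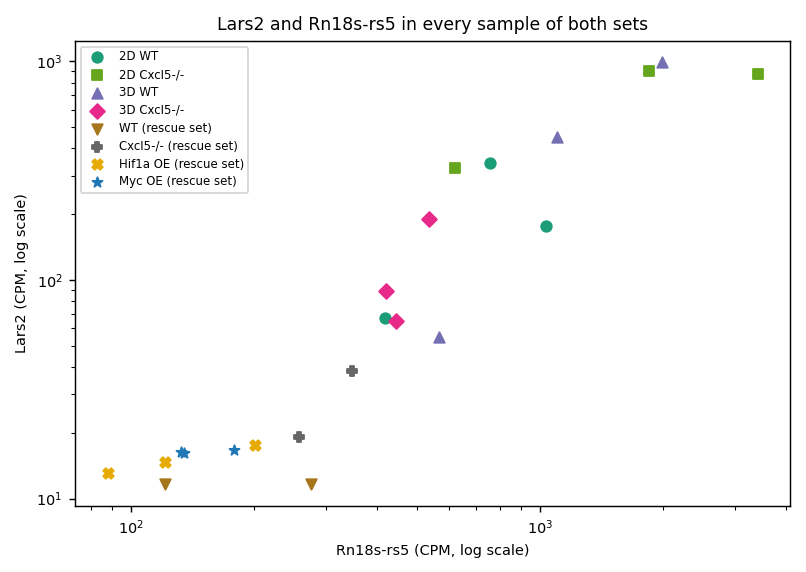
Lars2 against Rn18s-rs5, both in CPM on log axes, in the 22 libraries of the 2D and 3D set and the rescue set, with a symbol per group. The 3 libraries with the most Lars2 (879 to 995 CPM) also held the most Rn18s-rs5 (1846 to 3409 CPM), and replicates of 1 group lie far apart in the 2D and 3D set.

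Conditioned medium changed no synthetase gene past the test. Of the 38 genes 0 were called between M1-CM and Ctrl or between M1-CM and M0-CM, where edgeR called 0.0156% of 19207 genes higher and 0 lower, and 0 between M0-CM and Ctrl, where it called 0 genes in all. At an unadjusted p under 0.05 the members numbered 0 higher and 1 lower (Rars2), 0 and 0, and 1 higher (Cars) and 0 lower in these 3 comparisons, against 586 and 317, 309 and 189, and 412 and 157 of all genes. DESeq2 also called 0 members in each, against 75 higher and 31 lower, 22 and 12, and 18 and 4 of all genes. The medians for M1-CM against Ctrl were -0.11 for cytosolic and -0.09 for mitochondrial genes, and single genes ranged from -0.35 to 0.46. Wars, which IFNγ is known to induce, measured 46.1, 67.04 and 59.2 CPM in Ctrl, 51.02, 56.8 and 59.2 in M0-CM and 50.3, 38.9 and 48.9 in M1-CM. It was not higher in M1-CM (log2 change -0.32, SE 0.17, adjusted p = 0.965), and its M1-CM libraries lay below all M0-CM libraries, as for 4.03% of all genes tested. Gars (-0.03), Kars (-0.13), Qars (0.08) and Tarsl2 (-0.18) were not called either. Of 12 interferon-gamma genes 0 were called for M1-CM against Ctrl (median 0.81), whereas 12 of 12 were higher in 3D than in 2D WT (median 4.05), against 22.2% of all genes. M1-CM replicate 2 was the low library, with Sars at 106 CPM against 193 and 223 in the other M1-CM libraries. Its cytosolic class level was -0.36, against 0.06 and 0.07 in those libraries and -0.12, 0.05 and 0.08 in Ctrl. In the same comparison Cxcl5 went from 101 ± 20.4 to 682 ± 32.4 CPM (log2 change 2.76, SE 0.17, adjusted p = 0.000474). The spread between replicates limits what this set can show, so a p that misses the threshold does not show equal levels.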

How the data were processed

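Total RNA of Panc02 cultures was made into 31 stranded libraries with ribosomal RNA removed and sequenced paired-end. Per the labels and the study's methods, the authors aligned reads with HISAT2 to mm10 (GRCm38), counted genes with StringTie and tested them with DESeq2; the annotation release and the use of strand in counting are not given in the sources used here. The deposited values were raw counts per gene in 3 tables, analysed separately, with 0 value columns left unused. Hars and Hars2 overlap on opposite strands, as do Mars1 and Ddit3, and Aars and Tarsl2 overlap a neighbour on their own strand. Exons of Yars, Farsb, Fars2, Cars2, Iars2 and Ears2 also overlap a protein-coding gene on the opposite strand. Exons of Cars, Nars2 and Vars2, among others, overlap another annotated gene there. The counts of all these genes are uncertain.

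Counts were filtered with filterByExpr by group, scaled by TMM and fitted with edgeR 4.0.16 (R 4.3.3) in 1 quasi-likelihood model per table over all its groups, and p-values were adjusted by Benjamini-Hochberg over the 19207, 21367 and 28730 genes tested. A standard error is the log2 fold change divided by the square root of F. CPM per kb divides by the longest protein-coding transcript of the gene in GENCODE M21. DESeq2 1.42.0, other scalings and filters, a replicate block and the removal of each library were alternatives, and the scaling over genes under 1% of counts and the class level without Lars2 were added after the data had been seen. Genes described with values in every library were, per comparison, up to 5 cytosolic and 3 mitochondrial genes in each direction with the largest called changes, those against the direction of their class, and Gars, Kars, Qars and Tarsl2. Other genes named were chosen after their values were seen. The values of 1 gene and some promoter stretches are not reported here. The members and lists were chosen with earlier results of these data known. The deviations of same-numbered replicates had mean correlations of 0.0369, 0.0247 and 0.00408 in the 3 tables. Those of other-numbered replicates had -0.0186, -0.0123 and -0.0022. Such small values do not settle whether the numbers pair the samples, and the main fit used no replicate block. The fit was tested on simulated data first.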

Additional observations from a re-analysis of the deposited data

Results flagged for a closer look

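The effect of the knockout differed between 3D and 2D for 22 synthetase genes, by edgeR's interaction term (adjusted p under 0.05), and all 22 terms were negative, the effect in the libraries labelled 3D Cxcl5-/- lying below that in 2D. The values of 21 of them follow. Cxcl5 transcript was not lower in those 3D libraries. Among the cytosolic enzymes the difference on the log2 scale was -1.46 for Cars, -1.11 for Sars, -0.94 for Gars, -0.93 for Yars and -0.92 for Mars1. It was -0.77 for Qars, -0.75 for Kars, -0.75 for Tarsl2, -0.71 for Farsb, -0.65 for Tars and -0.61 for Aars. The remaining cytosolic values were -0.59 for Wars, -0.59 for Nars, -0.58 for Eprs and -0.42 for Dars. Among the mitochondrial enzymes the difference was -3.97 for Lars2, whose libraries spread widely, -0.82 for Tars2 and -0.72 for Aars2. It was -0.67 for Fars2, -0.65 for Wars2 and -0.40 for Nars2.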

How the results depend on the processing

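Of 4486 values of the 228 called gene and comparison pairs and the other named genes under an alternative, 4111 kept direction and call, 350 kept direction and lost the call, 8 gained one and 17 reversed; library totals (67), totals over genes under 1% (42), no filter (27) and the leaving out of 1 library (167) account for most losses. The cause was not tested. With an absolute log2 fold change above 1 also asked, calls fell to 1 for 3D against 2D WT, 3 for the knockout in 3D, 15 for the libraries labelled 3D Cxcl5-/- against 2D Cxcl5-/-, 3 for the interaction, 9 for the rescue knockout, 2 for Hif1a OE, 9 for Myc OE and 0 for Myc OE against Hif1a OE. By library totals calls were 15 for the knockout in 3D, 10 for the interaction, 18 for Hif1a OE and 9 for Myc OE against Hif1a OE. In 2D the knockout had 1 call, Mars2, with DESeq2, with at least 10 counts in every sample and with only the groups compared.

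By library totals the knockout in 3D reversed for Cars2 (0.0678), Ears2 (0.147), Hars2 (0.0439), Mars2 (0.199), Nars2 (0.0256) and Pars2 (0.00542), and by totals over genes under 1% for Ears2 (0.0190) and Mars2 (0.0688). For Hif1a OE, Lars, Nars and Tarsl2, none called, became -0.16, -0.15 and -0.12 by library totals and -0.0912, -0.0789 and -0.0533 by totals under 1%, Lars became -0.000398 with at least 10 counts, and Tarsl2 became -0.0837 without Hif1a OE replicate 1. For Myc OE, Tarsl2 became -0.0300 by library totals.

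The mean level of the class, as log2(CPM + 0.5), moved under these settings, in some cases by no more than the replicates differed. In the main setting the cytosolic level was 0.30 and 0.28 in rescue WT, -0.56 and -0.61 in rescue Cxcl5-/- and 0.24, 0.19 and 0.24 in Myc OE. By library totals 3D against 2D WT became -0.65 (cytosolic) and -0.29 (mitochondrial). The knockout in 3D became -0.28 and -0.12 by library totals and -0.41 and -0.25 by totals under 1%. The rescue knockout became -0.83 and -0.15 by library totals, -0.97 and -0.29 by DESeq2 size factors, -0.82 and -0.14 by totals under 1%, -0.90 (cytosolic) with Tarsl2 counted as mitochondrial and -0.28 (mitochondrial) without Lars2. Hif1a OE became 0.33 and 0.21 by library totals and 0.40 and 0.28 by totals under 1%. Myc OE became 0.47 and 0.31 by library totals, 0.56 and 0.40 by totals under 1%, 0.78 (cytosolic) without Gars and Kars and 0.72 (mitochondrial) without Lars2.

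Leaving out 1 library at a time gave 17 to 25 calls for 3D against 2D WT, 27 to 34 for the knockout in 3D, 32 to 37 for 3D against 2D Cxcl5-/-, 18 to 26 for the interaction, 24 to 28 for the rescue knockout, 22 to 32 for Hif1a OE, 34 to 37 for Myc OE, 11 to 17 for Myc OE against Hif1a OE and 0 to 0 in 2D and for all media comparisons. With 1 of 2 rescue replicates left out, the lone library is assumed to vary like the other groups. With the replicate block the calls were 25, 33, 37, 23, 27, 30, 37 and 14 in the same order and 0 in 2D and for the media. A sample correlated best with its own number in 6 of 9, 5 of 12 and 5 of 10 libraries of the 3 tables, a hint from the data only. No synthetase gene had fewer than 161 counts, but 2 libraries a group in the rescue set and the wide spread of the media set limit small differences.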
